A study of Caenorhabditis elegans with 2 samples.

Results

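The RNAi and Argonaute genes examined here are 10 genes of the worm's small RNA machinery, dcr-1, rde-4, rde-1, alg-1, alg-2, ergo-1, prg-1, csr-1, hrde-1 and ego-1. They were taken by name from 19973 protein-coding genes of the nuclear chromosomes, and the binding of the E2F-family factor EFL-1 at their promoters was read from lists of ChIP-seq regions. All 10 names matched an annotated gene. The larvae were of the first stage (L1), of mixed sex, and of strain YL418, which carries the unc-119(ed3) allele and the integrated transgene vrIs65. That transgene places EFL-1 with GFP and FLAG tags under the ges-1 promoter, which is active in the intestine, with the efl-1 3' sequence and a wild-type unc-119 copy beside it. There was 1 group, of 2 biological replicates numbered 2 and 3, with no strain or treatment set against it. The sample descriptions give the target of the ChIP as eGFP-efl-1, the tagged protein. Whole larvae were used, so the lists alone do not place a region in a tissue.

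In RNA interference, Dicer cuts double-stranded RNA into short interfering RNAs, which Argonaute proteins carry to matching transcripts. In worms, RNA-dependent RNA polymerases then copy the target into further small RNAs, and separate Argonautes serve microRNAs, piRNAs and heritable silencing. EFL-1 acts with DPL-1 and the retinoblastoma-like protein LIN-35, and worms without lin-35 are known to respond more strongly to introduced double-stranded RNA. A region counted for a gene when its summit, the position of highest signal, lay at most 1000 bp before or 500 bp after an annotated transcript start (5' end). A peak was a region that the authors kept after their irreproducible discovery rate (IDR) step. The IDR set held 1886 peaks, and the lists of replicate 2, replicate 3 and both together held 30000 regions each. Of the IDR peaks, 1823 overlapped a region in both replicate lists, so a place in the set does not require a listing in both. The depth of the libraries is unknown, so no counting error can be given, and the replicates differ in signal scale.

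Of the 10 genes, rde-4, alg-2 and ego-1 had a promoter peak (30.0%), against 2200 of all 19973 protein-coding genes (11.0%). The 3 peaks were of unequal strength. The rde-4 peak stood in the upper part of the IDR set and ranked alike in both replicates, while the alg-2 and ego-1 peaks lay near its lower end and were carried mostly by replicate 2. No Argonaute among the 10 had a peak other than alg-2, which is 1 of 7 (14.3%). The dcr-1 promoter held a region below the IDR set that was listed in both replicates. The 10 genes were listed with results of these data known, so these shares are described and not tested. The count changes with the replicate: with the strongest 1886 regions of replicate 3 alone, rde-4 was the only one of the 10 with a region (10.4% of all genes).

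The DNA under the regions of rde-4, alg-2 and dcr-1 is shown because it is the sequence these results rest on. The reference is ce11 (WBcel235, from RefSeq), on the strand of the gene and read 5' to 3'. Capitals mark TTTGAA or its reverse complement, letters found in the promoter elements that LIN-54, a DNA-binding partner of EFL-1 in the DREAM complex, is known to bind. Neither TTTGAA nor the E2F consensus (TTT, then 2 bases that are each C or G, then CGC) occurs in the rde-4 peak. The rde-4 sequence is the whole peak of 143 bp, chrIII:10218692-10218834 on the minus strand, with the summit at base 72. The alg-2 sequence is chrII:873467-873651 on the plus strand, the first 185 bp of a 284 bp peak, with the summit at base 143. The remaining 99 bp begin at the annotated exon of a non-coding RNA. The dcr-1 sequence is chrIII:8080282-8080509 on the minus strand, 228 bp of a 284 bp region up to the last base before the annotated 5' end, with the summit at base 142.
rde-4: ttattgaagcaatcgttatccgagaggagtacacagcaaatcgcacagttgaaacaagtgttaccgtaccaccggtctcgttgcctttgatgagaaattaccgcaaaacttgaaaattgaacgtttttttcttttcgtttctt
alg-2: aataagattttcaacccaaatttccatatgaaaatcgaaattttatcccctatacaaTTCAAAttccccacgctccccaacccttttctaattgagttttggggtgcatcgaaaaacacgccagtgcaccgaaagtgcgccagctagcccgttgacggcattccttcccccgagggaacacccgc
dcr-1: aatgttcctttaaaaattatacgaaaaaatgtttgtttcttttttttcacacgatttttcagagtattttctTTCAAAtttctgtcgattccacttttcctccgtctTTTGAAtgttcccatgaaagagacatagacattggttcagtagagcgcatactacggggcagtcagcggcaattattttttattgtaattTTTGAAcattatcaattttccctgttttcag

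The genes that make and hold double-stranded RNA fragments are dcr-1, which encodes Dicer, and rde-4, which encodes a double-stranded RNA-binding partner of Dicer. The rde-4 gene (WBGene00004326, chromosome III, 10217302 to 10218646, minus strand) has a single 5' end, and its peak summit lay 117 bp upstream. Its signal, in the units of the authors' column, was 112.0 in replicate 2 and 48.30 in replicate 3. Both are well above the typical IDR peak of their own list, whose median was 45.78 in replicate 2 and 19.21 in replicate 3. Divided by those medians, the signal was 2.447 in replicate 2 and 2.514 in replicate 3, a mean of 2.48 ± 0.0475 (SD, n = 2). Divided by the median of the whole list of each replicate, it was 23.22 in replicate 2 and 12.06 in replicate 3, so the likeness in signal holds on the first scale and not on the second. The rde-4 peak ranked 503 of 30000 regions in replicate 2 and 490 of 30000 in replicate 3, and its summits lay 6 bp apart. In the IDR set it ranked 508 of 1886, and 73.1% of IDR peaks were weaker.

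The rde-4 peak lies between divergent genes. The 5' end of cox-14, on the plus strand, is 296 bp from that of rde-4 and 179 bp from the summit, so the same summit counts for both. Peak lists do not say to which of the genes a region belongs. In the order of promoter peaks, rde-4 stood between the peak of bmk-1 and coh-3, at rank 507, and that of rpl-6, at rank 509. Their signals relative to the replicate medians were 2.26 ± 0.511 for bmk-1 and coh-3 and 2.59 ± 0.558 for rpl-6 (SD, n = 2 each). The rde-4 mean lay within the spread of both neighbours.

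Dicer had no IDR peak, but dcr-1 (WBGene00000939, chromosome III, 8071967 to 8080281, minus strand) was the gene among the 7 without one whose region ranked highest in the list called on both replicates together, the pooled list. That region had a signal of 16.22 and ranked 2787 of 30000, against a lowest signal of 24.41 in the IDR set. Its signal was 9.408 in replicate 2 and 7.406 in replicate 3, which is 0.296 ± 0.127 times the replicate medians over IDR peaks (SD, n = 2). It ranked 3591 in replicate 2 and 3260 in replicate 3, both outside the strongest 1886 regions. The summits lay 74 bp upstream of the 5' end in replicate 2, 6 bp upstream in replicate 3 and 87 bp upstream in the pooled list. The replicate summits were 68 bp apart, a wider gap than at 86.5% of the 1823 IDR peaks listed in both replicates, where the median gap was 17.0 bp. The region also lies 261 bp upstream of apc-2, a divergent gene for a subunit of the anaphase-promoting complex, whose 5' end is 348 bp from that of dcr-1.

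**Figure D1:**
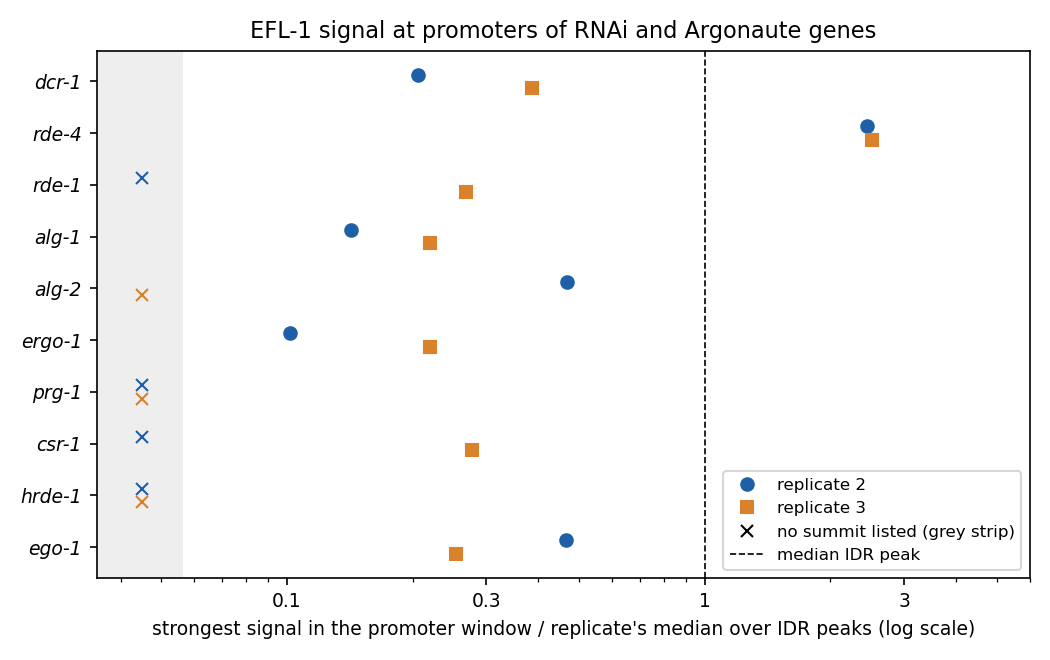
For each of the 10 genes, the strongest signal with its summit in the promoter window, divided by that replicate's median over IDR peaks (log axis), in replicate 2 (circles) and replicate 3 (squares). Crosses in the grey strip mark replicates with no summit listed. Only rde-4 lies above the dashed line of the median IDR peak, at 2.447 and 2.514, and the other values lie between 0.1017 and 0.4673.

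Of the microRNA Argonautes, alg-2 had a peak and alg-1 did not. The alg-2 gene (WBGene00000106, chromosome II, 873212 to 879885, plus strand) has 2 annotated 5' ends. The summit lay in an intron, 397 bp downstream of the outer 5' end and 551 bp upstream of the inner one. Its signal was 21.39 in replicate 2, which is 0.467 times that replicate's median, with rank 1616. Replicate 3 listed no region there, and its weakest listed signal was 2.626. The alg-2 peak was 1 of 61 IDR peaks without a counterpart in replicate 3, while 2 IDR peaks had none in replicate 2. In the IDR set it ranked 1703 of 1886, with a pooled signal of 27.94. The annotated non-coding RNA T07D3.12 starts 43 bp from the summit, so the region cannot be assigned to alg-2 alone.

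The alg-1 gene (WBGene00000105, chromosome X, 13949110 to 13956261, plus strand) has 4 annotated 5' ends. Its strongest pooled region had a signal of 12.48 and ranked 4366 of 30000. The summit was in an alg-1 exon, 381 bp upstream of the innermost 5' end and 1771 bp downstream of the outermost. The same region had a signal of 6.524 in replicate 2 and 4.002 in replicate 3, 0.175 ± 0.0465 times the replicate medians (SD, n = 2). The summits were 4 bp apart, but the nearest IDR peak to any alg-1 5' end was 30777 bp away. Of the 10 genes, alg-1 is the only X-linked one, and a peak was found at 74 of 2731 genes on that chromosome (2.71%).

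The Argonautes of short interfering RNAs from outside and from the worm's own transcripts, rde-1 and ergo-1, had no peak. The rde-1 protein takes up the first short interfering RNAs made by Dicer from introduced double-stranded RNA. At rde-1 (WBGene00004323, chromosome V, 9987916 to 9991642, minus strand) a pooled region with a signal of 7.272 ranked 18014 of 30000, and the summit was 50 bp upstream. Replicate 3 listed an overlapping region with a signal of 5.150, but its summit was 183 bp upstream. Replicate 2 listed no region there. The summit of the pooled region also lies 203 bp upstream of the divergent gene trpp-6. The ergo-1 protein binds endogenous small RNAs. At ergo-1 (WBGene00019971, chromosome V, 1008803 to 1018352, plus strand) the strongest pooled region had a signal of 8.695 and ranked 11411. The 4 annotated 5' ends of ergo-1 give it 6004 bp of promoter window, against 1501 bp for a gene with 1 end. The strongest summits there were 366 bp downstream of a 5' end in replicate 3, with a signal of 4.221, and 331 bp downstream of another 5' end in replicate 2, with a signal of 4.657. Replicate 2 listed no region overlapping the strongest pooled one.

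The germline Argonautes prg-1, csr-1 and hrde-1 had no summit in the promoter window in the pooled list. That list held one for 51.0% of all protein-coding genes. The prg-1 protein is the PIWI protein of worm piRNAs, csr-1 binds small RNAs against germline-expressed genes, and hrde-1 acts in the nucleus in inherited silencing. At prg-1 (WBGene00004178, chromosome I, 7585329 to 7588367, minus strand) and hrde-1 (WBGene00007624, chromosome III, 4172337 to 4176159, minus strand) none of the 3 longer lists had a summit in the promoter window. The same held for 28.5% of all genes. At csr-1 (WBGene00017641, chromosome IV, 7957267 to 7962157, plus strand) replicate 3 listed a region 517 bp upstream with a signal of 5.333, ranking 7917, and neither replicate 2 nor the pooled list had one. In replicate 3 that signal was above those at rde-1 (5.150), ego-1 (4.876), alg-1 (4.222) and ergo-1 (4.221), and below rde-4 and dcr-1. Both prg-1 and hrde-1 face a divergent gene, D2030.7 at 213 bp and C16C10.13 at 281 bp. In L1 larvae the germline is only the few cells of the gonad primordium. The sample descriptions give the target as eGFP-efl-1, the tagged protein, which the strain places under the ges-1 promoter. They do not say whether untagged EFL-1 was pulled down as well. A missing region therefore cannot be read as missing binding in the germline.

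The RNA-dependent RNA polymerase gene ego-1, which makes small RNAs in the germline, had a weak peak. The ego-1 gene (WBGene00001214, chromosome I, 7650341 to 7656338, minus strand) has 1 annotated 5' end, and the summit lay 362 bp upstream of it. Its signal was 21.26 in replicate 2 and 4.876 in replicate 3, a mean of 0.359 ± 0.149 times the replicate medians (SD, n = 2). The peak ranked 1621 in replicate 2 but 9940 in replicate 3. The replicate 3 summit lay 113 bp away, 475 bp upstream, a gap above the 90th percentile of 82.0 bp over IDR peaks. In the IDR set it ranked 1793 of 1886, with a pooled signal of 26.16, 1.072 times the lowest signal kept. The summit lies 278 bp past the 3' end of the upstream gene F26A3.4 and 226 bp upstream of the piRNA gene 21ur-14981. The polymerase gene rrf-1 begins 564 bp downstream of the ego-1 3' end and had no summit in its window in the pooled list.

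**Figure D2:**
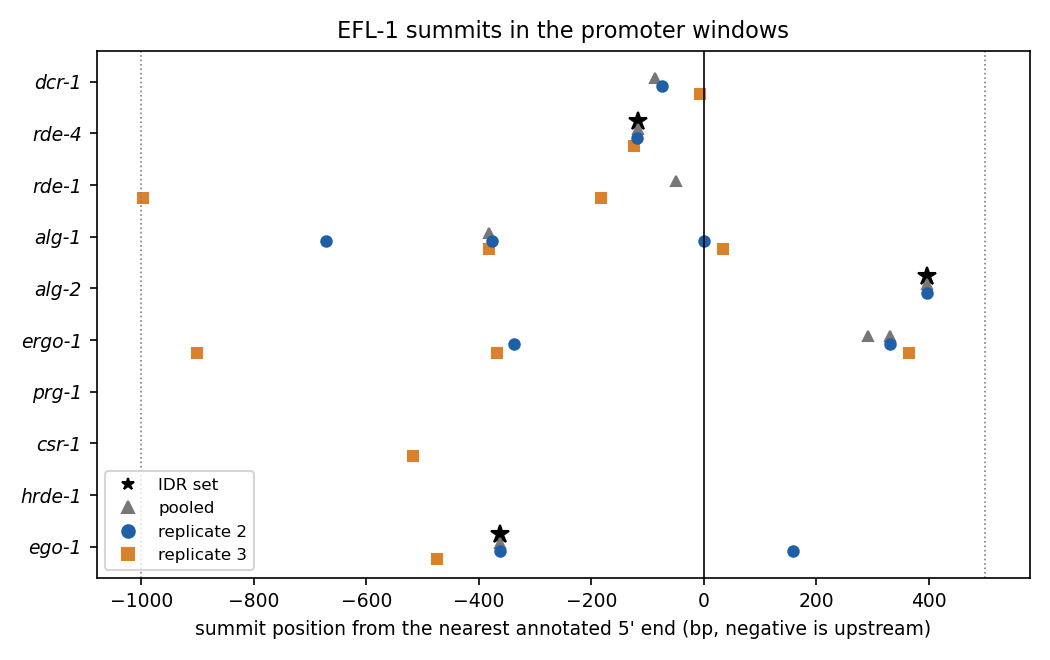
Every summit in the promoter windows of the 10 genes, as bp from the nearest annotated 5' end (negative is upstream), in the IDR set (stars), the pooled list (triangles), replicate 2 (circles) and replicate 3 (squares). Dotted lines are the window's limits. At rde-4 the summits of all lists lie within 117 to 124 bp upstream, at alg-2 replicate 3 has none, and prg-1 and hrde-1 have none in any list.

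In the longer lists, which hold many weak regions, about as many promoters hold a summit as do not. A summit in the promoter window was listed for 7 of the 10 in the pooled list, against 51.0% of all protein-coding genes. In replicate 2 the count was 6 of 10, against 50.2%, and in replicate 3 it was 7 of 10, against 50.1%. All 3 lists held one for rde-4, dcr-1, ego-1, alg-1 and ergo-1, which is 5 of 10, against 28.7% of all genes. At alg-1 and ergo-1 several 5' ends widen the window. None of the lists held one for 2 of 10, against 28.5% of all genes. When the window was narrowed to 300 bp before and 100 bp after the 5' end, rde-4 was the only one of the 10 with an IDR peak, against 7.17% of all genes.

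**Figure D3:**
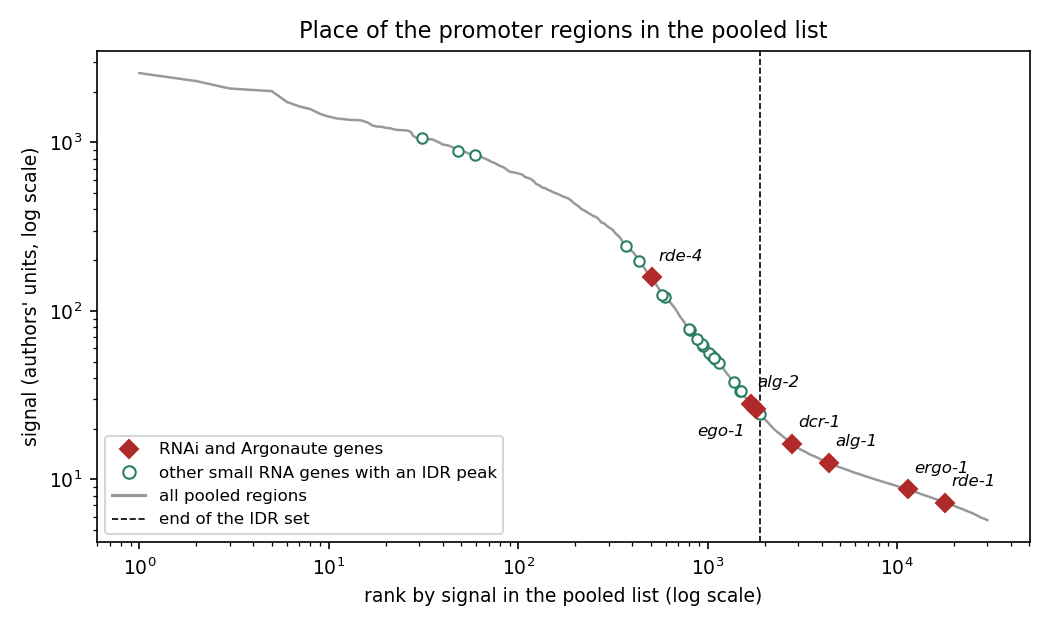
Signal (authors' units, log axis) against rank (log axis) for the 30000 pooled regions (grey line), with the strongest promoter region of each of the 7 RNAi and Argonaute genes listed there (diamonds) and the promoter IDR peaks of other small RNA genes (open circles). The dashed line is the end of the IDR set at rank 1886. The rde-4 region is at rank 508, alg-2 and ego-1 stand just before the line at 1703 and 1793, and dcr-1 is next after it at 2787.

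Promoter layout and base content differed among the 10. A divergent protein-coding gene began within 1000 bp of 5 of them, dcr-1, rde-4, rde-1, prg-1 and hrde-1, of which rde-4 had a peak. Over all genes, 1156 of 3658 with such a partner had a peak (31.6%), and 1044 of 16315 without one (6.40%). The 7 genes without a peak were 4942 bp (hrde-1) to 43724 bp (ergo-1) from the nearest IDR summit, with a median of 10713 bp, against a median of 23924 bp over the 17773 protein-coding genes without a promoter peak. No IDR summit lay within any of the 10 genes except the alg-2 one. Many worm transcripts are joined to a spliced leader, so an annotated 5' end can be a splice acceptor, which ends in AG, and not the start of transcription. The bases AG stood just before 8 of the 19 annotated 5' ends of the 10 genes (42.1%), that of dcr-1 among them, against 26.3% of the 5' ends of all protein-coding genes. At least 1 such end was found at 7 of the 10 genes, against 36.4% of all genes, a share that grows with the number of ends, and rde-4, csr-1 and ego-1 had none.

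Motifs were counted on both strands within 100 bp of the summit. TTTGAA stood 3 times at the dcr-1 region, 3 times at the ego-1 peak, 2 times at the alg-2 peak (the second in the stretch not printed) and 1 time at the rde-1 region. It was absent at rde-4, alg-1 and ergo-1. All IDR summits held it in 49.8% of cases, and windows of the same length around the 5' ends of all protein-coding genes in 49.6%. At rde-4 it was present 4 times in the wider window of 250 bp on each side, where 81.2% of IDR summits hold it. None of the 7 regions held the E2F consensus, which stood at 12.4% of IDR summits and in 3.10% of the 5' end windows. The share of G and C in these windows was 47.8% at alg-2, 39.3% at ego-1 and 32.3% at rde-4, beside a median of 39.8% over IDR summits.

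Beyond the 10 genes, 70 other names of the small RNA pathways were listed by role, of which 66 matched an annotated protein-coding gene. Of these 66, 21 had a promoter peak (31.8%), beside 11.0% of all protein-coding genes. Their pooled signals ran from 24.46 to 1063 with a median of 63.55, close to the median of 62.03 over all IDR peaks. Most of these peaks were shared: at 16 of the 21 the summit also lay in the window of another protein-coding gene, against 62.8% of the 2200 genes with a peak. When each summit was given only to the protein-coding gene with the nearest 5' end, the count was 9 of 66 (13.6%), against 7.53% of all genes, and alg-2, ego-1 and rde-4 kept theirs. Non-coding genes were not weighed in that count, and their starts are nearer to the summits at alg-2, ego-1, vig-1, tost-1 and pid-3. TTTGAA stood at 16 of these 21 peaks and the E2F consensus at 1, that of pid-3, beside 49.8% and 12.4% of all IDR summits, and neither difference was tested.

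Of the other Argonautes 2 of 13 had a peak. These were at alg-5, which binds microRNAs in the germline, with a signal of 53.86, 779 bp upstream and shared with the histone genes his-67 and his-68, and at wago-4, which acts in inherited RNAi, with a signal of 24.46, 300 bp upstream and shared with F58G1.2. Taken with the 7 above, 3 of 20 Argonaute genes had a peak (15.0%), near the 11.0% of all protein-coding genes. Of the other polymerase genes, rrf-3, of the pathway for endogenous small RNAs, had a peak at 51.91 that it shares with emb-27, and rrf-1 and rrf-2 had none. Among Dicer partners and the proteins that enhance or limit RNAi, 3 of 11 had a peak: rde-10 (signal 77.43, shared with rnp-6), the Tudor-domain gene ekl-1 (signal 56.18, shared with prpf-4) and the helicase gene rde-12 (signal 37.71).

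The strongest peaks in the promoter windows of these genes were at rde-2, vig-1 and pash-1. Mutator proteins amplify small RNAs at foci beside germline nuclei. Of 10 mutator genes 6 had a peak in the window, beside 11.0% of all genes, but each of the 6 summits lay nearer to the 5' end of another protein-coding gene, so none was left when a summit counted for the nearest gene alone. The strongest was at rde-2 with a signal of 1063 and rank 31, but 924 bp upstream of rde-2 and 86 bp upstream of the prefoldin gene pfd-6. The next were at mut-15 (signal 124.8), shared with the fibrillarin gene fib-1, and at mut-2 (signal 121.1), a nucleotidyltransferase gene that shares its peak with K04F10.3. The peaks of nyn-2, rde-8 and mut-7 are shared with cyn-15, ZC477.3 and eif-2Balpha. Of 8 genes for microRNA processing and silencing 4 had a peak, beside the same 11.0%. Of these, vig-1 and pash-1 were left with the nearest protein-coding gene alone, a count that takes in 7.53% of all genes. The peak of vig-1, a component of the silencing complex, had a signal of 893.4 and rank 48, with a piRNA gene 119 bp from the summit. That of pash-1, the partner of the Drosha nuclease, had 837.9 and rank 59, with the summit 104 bp upstream and no other gene in reach. The signal of pash-1 was 562.1 in replicate 2 and 279.1 in replicate 3, 13.4 ± 1.59 times the replicate medians (SD, n = 2). The third was at nhl-2, a cofactor of microRNA silencing (signal 242.2), 865 bp upstream, shared with tag-340 and at the start of the non-coding RNA gene F26F4.14.

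Of the 3 nuclear RNAi genes, nrde-2 (signal 68.30, not listed in replicate 3) and nrde-4 (signal 49.12) had a peak and nrde-1 had none. The nrde-2 summit was 932 bp upstream and is shared with atad-3. Of 11 genes listed under piRNA biogenesis 3 had one. These were tost-1 (signal 197.3, shared with arx-6 and a non-coding RNA gene), pid-3 (signal 52.58, shared with spe-47 and a non-coding RNA gene) and snpc-4 (signal 33.32). The pid-3 gene encodes part of a piRNA processing complex and snpc-4 a transcription factor of piRNA genes. None of the 7 genes of systemic RNAi, which moves double-stranded RNA between cells, had one: sid-1, sid-2, sid-3, sid-5, rsd-2, rsd-3 and rsd-6. With 11.0% of all genes having a peak, none among 7 genes does not set this role apart. Roles of 3 to 13 genes give coarse shares, and the roles were not tested against each other.

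**Figure D4:**
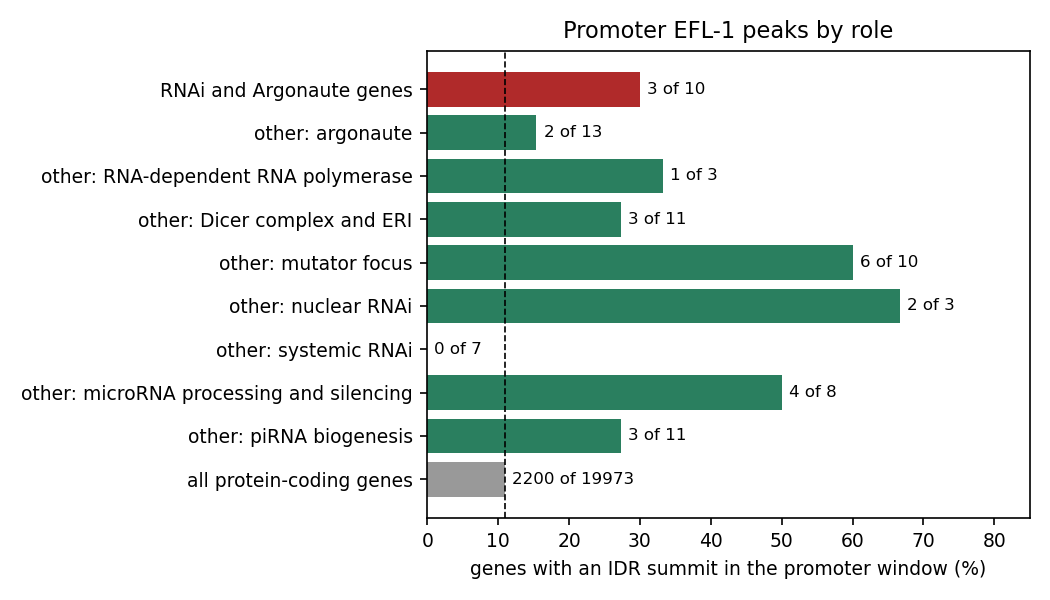
Share of genes with an IDR summit in the promoter window (horizontal axis, from 0), for the 10 RNAi and Argonaute genes (top), for the other small RNA genes by role, and for all protein-coding genes (bottom, and dashed line). The count of genes stands beside each bar: 3 of 10 at the top, 6 of 10 for mutator genes, each nearer to another gene's 5' end, 0 of 7 for systemic RNAi and 2200 of 19973 for all genes.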

How the data were processed

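The regions used are lists on the build ce11 in narrowPeak layout, deposited by the authors: 1 for each of 2 biological replicates, 1 on both together and 1 past an IDR threshold, made from the other 3 per the notes deposited with each replicate. The deposited signal (column 7) was divided by the replicate's median over IDR peaks to set replicates side by side. The deposited −log10 q-value (column 9) was not used to rank. Caller, aligner and control are left unstated here, with versions not given in the sources used here. Lists on ce10 were not used. Genes came from Ensembl release 115 (WBcel235), whose chromosome names and lengths fit the regions. Python 3.11.15, numpy 2.4.6 and pandas 2.3.3 were used, and the functions were tested on simulated data. No annotated protein-coding gene matched 4 of the 70 other names (prg-2, wago-2, wago-11, drh-2). The members, lists, windows and alternatives were chosen with earlier results of these data known, so no test was made. Named by rule are the 10 members, genes sharing their peaks, the 3 strongest of each role, genes without a peak in the smallest roles, and the rank neighbours of rde-4. Partners of other pathway genes, systemic RNAi genes, the neighbours of ego-1, promoter layout, AG and shared-peak counts were added after values were seen.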

Additional observations from a re-analysis of the deposited data

How the results depend on the processing

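Of 19 recomputed gene counts, 10 stayed within 1.5 times their value. The count of 3 RNAi and Argonaute genes fell to 1, rde-4, with the narrow window of 300 bp before and 100 bp after (7.17% of all genes), with only the 943 strongest IDR peaks (6.48%), and with the 1886 strongest regions of replicate 3 alone, that is without replicate 2 (10.4%). Without replicate 3 it was 3 (10.8%), so leaving out a replicate gave 1 to 3. It was 3 with the other 4 alternatives. The 21 other pathway genes became 11 with the narrow window, 11 with the 943 strongest peaks and 9 with the nearest 5' end only. They numbered 21 when either replicate was left out, but the genes changed. Without replicate 2, nrde-2 and tsn-1 dropped out and pir-1 and rrf-2 came in. Without replicate 3, wago-4 dropped out and ain-1 came in. With the narrow window, the longer lists held a summit for 3 of the 10 (pooled, 24.6% of all genes), 3 (replicate 2, 24.7%) and 4 (replicate 3, 23.4%). Narrower windows, fewer peaks and giving each summit to 1 gene alone can only lower a count. In replicate 3, alg-2 had no region in its window and ego-1 ranked 9940, outside the strongest 1886. Why the replicates differ there was not tested. For single genes, 33 of 48 recomputed values stayed. Those that moved were signals divided by the whole-list median (rde-4 17.64, against 2.48, and dcr-1, alg-1 and ego-1), ranks or summits at dcr-1, rde-1, alg-1, ergo-1 and ego-1, and the presence of TTTGAA in other windows at rde-4, rde-1 and alg-2. Motif counts were taken to have moved only where TTTGAA appeared or was lost. At dcr-1 and ego-1 the count fell from 3 to 1 with 50 bp on each side of the summit, which is among the values called unchanged. Unknown depth limits what the alg-2, csr-1 and rde-1 regions missing from 1 replicate can show. No paired analysis was possible because there is 1 group.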

Other observations

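Within the gene bodies, the longer lists held weak regions, and not only at genes with few or no promoter summits. The pooled list held 3 summits inside alg-1, 3 inside ergo-1, 1 inside dcr-1 and none inside rde-4 or ego-1. The share of all genes with such a summit was not computed, and gene length was not allowed for. The prg-1 gene had 1 summit in the pooled list (signal 8.395), 3 in replicate 2 and 2 in replicate 3. The hrde-1 gene had 1 in the pooled list (7.775), 2 in replicate 2 and 2 in replicate 3. At csr-1 the strongest summit inside the gene had a signal of 7.678 in replicate 2 and 3.043 in replicate 3, and the pooled list held none there. The rde-1 gene had a pooled region inside it with a signal of 10.80, above the 7.272 of its promoter region. The pooled values lie below 24.41, the lowest pooled signal in the IDR set.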
